A study of Rattus norvegicus with 16 samples.

Results

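The 3 replicates of ac4C immunoprecipitation from the dorsal horn of rats with bone cancer pain are described here, gene by gene, through the peak list that was deposited for each. Members were taken by their labels alone: 6 of the 16 samples of the series, which are 3 immunoprecipitated (IP) libraries and their 3 inputs. Each list gave the peaks of 1 IP over its own input, with an Ensembl gene identifier per peak. List 1 held 29130 genes, list 2 held 2022 and list 3 held 1078. All animals are given as wild type. The comparison group was 3 IP and input pairs from the dorsal horn of normal rats. The labels name no strain, age, tumour line or time after the induction of cancer, and do not say whether a replicate was 1 rat. The files of the pain group carry the letters CFA where the labels give cancer-induced bone pain, and the groups follow the labels. The series' design text speaks of interference with a gene, but no label of these samples names such a treatment.

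N4-acetylcytidine, ac4C, is a cytidine carrying an acetyl group on its base. In mammals it is made by NAT10, which acetylates transfer RNA and ribosomal RNA, and acetylation of messenger RNA by the same enzyme has been linked to RNA stability and translation. An antibody against ac4C pulls down RNA fragments that carry the mark, and a peak is a stretch of a transcript that is more abundant among those fragments than in the input. The dorsal horn receives pain, touch and temperature signals from the body, and its excitatory and inhibitory neurons set how strongly they are passed to the brain.

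Symbols, biotypes and an RNA level were joined from a table of a separate RNA immunoprecipitation (RIP) of the dorsal horn in bone cancer pain, with 2 input libraries. That table holds 8671 genes, all above a log2 fold of 1 in that RIP. A gene without a row in it is counted but not named. Its input signal has no stated unit and comes from other libraries than the ac4C inputs. Among the 8671 genes were 8 of 8 astrocyte markers, 8 of 8 oligodendrocyte markers and 8 of 12 neuronal markers. A marker without a row has no input level here, which does not show that it is absent from the tissue. The level was 154.2 for Nefl, a neurofilament subunit, and 1061 for Mbp, the myelin basic protein. Markers of other cells had rows too. Of 5 markers of sensory ganglia and Schwann cells, 4 had a row. Of 8 microglial markers, 5 had a row, at no more than 4.243. Hbb of red blood cells stood at 30.13. Whether RNA of those cells took part in any peak was not tested. Read totals are not given in the files, so the depth behind a peak is unknown.

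The 3 lists differed in length mainly through weak peaks. List 1 held 50417 peaks, list 2 held 2416 and list 3 held 1173. In list 1, 49103 peaks (97.39%) had exactly the same values: a fold enrichment (the authors' ratio of IP to input) of 10.6, a p-value of 0.037 and a false discovery rate (FDR) of 0.05623. They covered 28798 genes, and 27924 genes had no other peak in list 1. Their exonic width had a median of 385 bp, and they ran over as many as 119 exon blocks. The other 1314 peaks of list 1 had a median of 181 bp. Identical values recurred on a smaller scale in the other lists. The most frequent pair of fold and p-value was shared by 598 peaks of list 2 (24.75%) and by 120 peaks of list 3 (10.23%).

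At an FDR of at most 0.05 the lists came to similar lengths, and the results below use this limit unless all peaks are named. List 1 then held 919 peaks in 861 genes, list 2 held 1240 in 1093 and list 3 held 899 in 834. The median exonic width was 181, 180 and 180 bp, and 55.28%, 54.19% and 52.73% of peaks were spread over more than 1 exon. One feature still set list 1 apart: 102 of its peaks, in 101 genes, were wider than 481 bp, the widest peak of the other 5 lists, and reached 10436 bp. Without them the number of genes in all 3 lists stayed at 60.

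**Figure D1:**
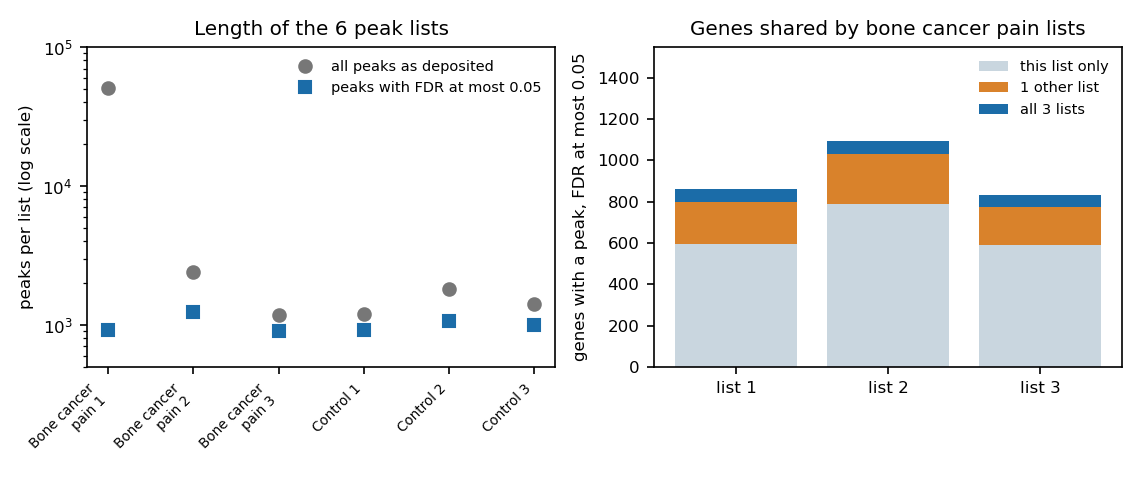
Left, the number of peaks in each of the 6 lists on a log scale, for all peaks as deposited (circles) and for peaks with an FDR of at most 0.05 (squares). Right, genes with such a peak in each bone cancer pain list, split by how many of the 3 lists hold the gene. List 1 is the longest at 50417 peaks as deposited but has 919 under the limit, and most genes of each list are in that list only.

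Most genes with a peak were seen in a single list. Of 2350 genes with a peak, 1972 were in 1 list, 318 in 2 and 60 in all 3. Lists 1 and 2 shared 193 genes, 22.42% of list 1 and 17.66% of list 2. Lists 1 and 3 shared 134, which is 15.56% and 16.07% of each. Lists 2 and 3 shared 171, which is 15.65% and 20.5% of each. The 9 pairings of a bone cancer pain list with a control list shared between 137 and 210 genes; the 3 pairings within bone cancer pain lie between 134 and 193. The share of a list's genes found in another list of its own group was 29.4% ± 1.599 (SD, n = 3) in bone cancer pain and 28.59% ± 1.501 in controls. That difference of 0.814 percentage points gave p = 0.6 in a two-sided exact permutation test, whose smallest p is 0.1, and an adjusted p of 0.9 over 7 measures. The share of a list depends on the other lists of its group and was not recomputed when lists were shuffled between groups. This p therefore cannot decide whether sharing differs between the groups.

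Leaving list 1 aside changes which genes recur. Of the 171 genes in lists 2 and 3, 60 were in list 1 as well and 111 were not. Among those 111, 66 had in list 1 only the peaks of fold 10.6 described above, and 42 had no peak there. With all peaks as deposited, 267 genes were in all 3 lists, 2314 were in at least 2 and 342 were in lists 2 and 3. Of the 8564 genes of the RIP table with a symbol of their own, 232 (2.71%), 1866 (21.8%) and 301 (3.51%) were among these. The long list covers nearly any gene set: as deposited it held 76.49% of the list 2 genes, 79.26% of the list 3 genes, 75.6% to 82.48% of the genes of the control lists and 81.14% of the RIP table.

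Genes in more lists had a higher RNA level in the RIP inputs. The median input signal was 3.021 for genes of the table with no peak, 4.457 for genes in 1 list, 6.904 for 2 lists and 10.86 for 3 lists. When the table was split into 4 equal parts by input signal, a peak in at least 1 list was found for 12.96%, 17.39%, 25.57% and 36.76% of genes, from the lowest part to the highest. A peak in at least 2 lists was found for 1.061%, 1.799%, 4.153% and 8.994%. With all peaks as deposited the order was different: genes with no peak had the highest median, 7.87, against 2.783, 3.749 and 5.05 for 1, 2 and 3 lists. These are descriptions across genes, which are not replicates, and the level belongs to other libraries. In bulk tissue, fewer cells of a type and less RNA per cell cannot be told apart.

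**Figure D2:**
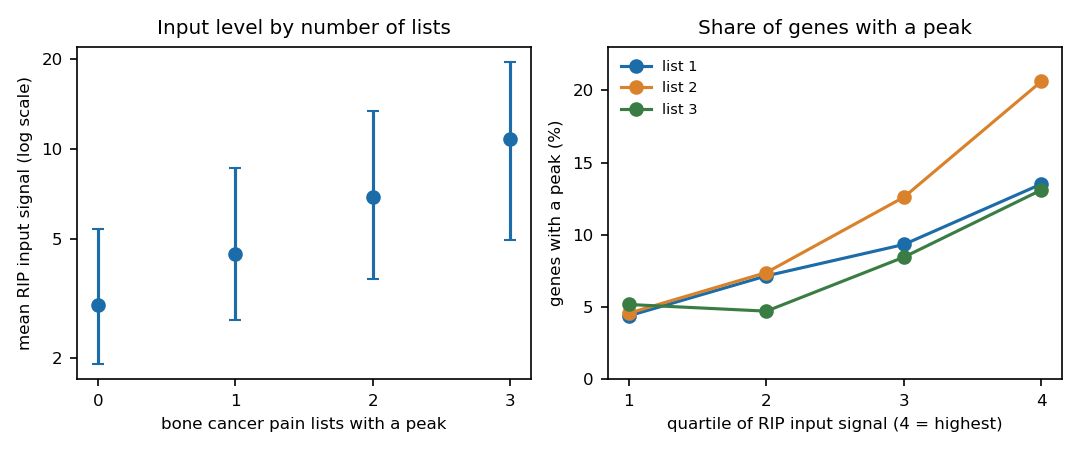
Left, mean signal of the 2 RIP input libraries (log scale) for genes of the RIP table with a peak at an FDR of at most 0.05 in 0, 1, 2 or 3 bone cancer pain lists; points are medians over genes and bars run from the first to the third quartile. Right, the percentage of genes with such a peak in each list by quartile of input signal. The median rises from 3.021 to 10.86, and in the highest quartile each list reaches its largest share.

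Nearly all named peak genes were protein-coding: 1638, 293 and 48 genes in 1, 2 and 3 lists, with 24, 5 and 1 of another biotype. The same holds for the RIP table that gives the biotypes, where 8420 of 8671 genes are protein-coding. The 1 exception in all 3 lists was Syne1, which that table lists as a processed transcript. Of 25 microRNA genes there, 0 had a peak, and 2 of 56 small nucleolar RNAs did, against 23.3% of all named genes. The narrowest peak of the 3 lists was 102 bp wide, and the length of these small RNAs was not analysed. SNORA48 had a peak at the same place in lists 2 and 3, on the minus strand of chromosome 10 from 56274124 to 56274238, with folds of 3.27 and 22.3. Ubb, a polyubiquitin gene that the table calls a pseudogene, had overlapping peaks in lists 1 and 2 with folds of 10.6 and 6.82. Whether reads of near-identical copies were split between them was not tested, and these values are uncertain.

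Mitochondrial RNA carried 4 peaks in list 1, 2 in list 2 and 4 in list 3, with −log10 p from 3.16 to 4850. AY172581.9, a mitochondrial ribosomal RNA, had a peak in list 1 from 726 to 965 and in list 2 from 786 to 965, with −log10 p of 54.9 and 33.5. AY172581.24, the other mitochondrial ribosomal RNA, had peaks in list 1 and not in lists 2 and 3, the stronger from 2457 to 2664 with a −log10 p of 278. An unnamed mitochondrial gene had a peak in all 3 lists that covered the stretch from 8686 to 8889. Its −log10 p was 4200 in list 1, 4850 in list 2 and 2040 in list 3, while its fold was 4.35, 2.45 and 1.66. These were the largest −log10 p values of each list, at folds below those of most other peaks.

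Of the 60 genes in all 3 lists, 49 were named, 0.572% of the 8564 genes of the table that have a symbol of their own. For scale, 23.3% of those genes had a peak in at least 1 list and 4.04% in at least 2. Both lists 2 and 3 held 1.82% of the table's named genes, and at least 2 control lists held 3.91%. The 60 genes were not held at 1 position: 13 had a stretch that overlapped from list to list across all 3, 17 had an overlap between lists of some pair, and 30 had none. Of the 13, 11 were unnamed. Every unnamed gene among the 60 had its peak at 1 place. In named genes, by contrast, the strongest peaks lay a median of 23.59 kb apart along the genome. The distances ran from 0.0145 kb in Slc35e2b to 494.3 kb in Utrn. All distances in kb here are between peak centres. Over all genes, the peaks of the 3 lists merged into 2946 stretches, of which 2853 were in 1 list, 80 in 2 and 13 in 3. Controls gave 2785, 83 and 11 of 2879.

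**Figure D3:**
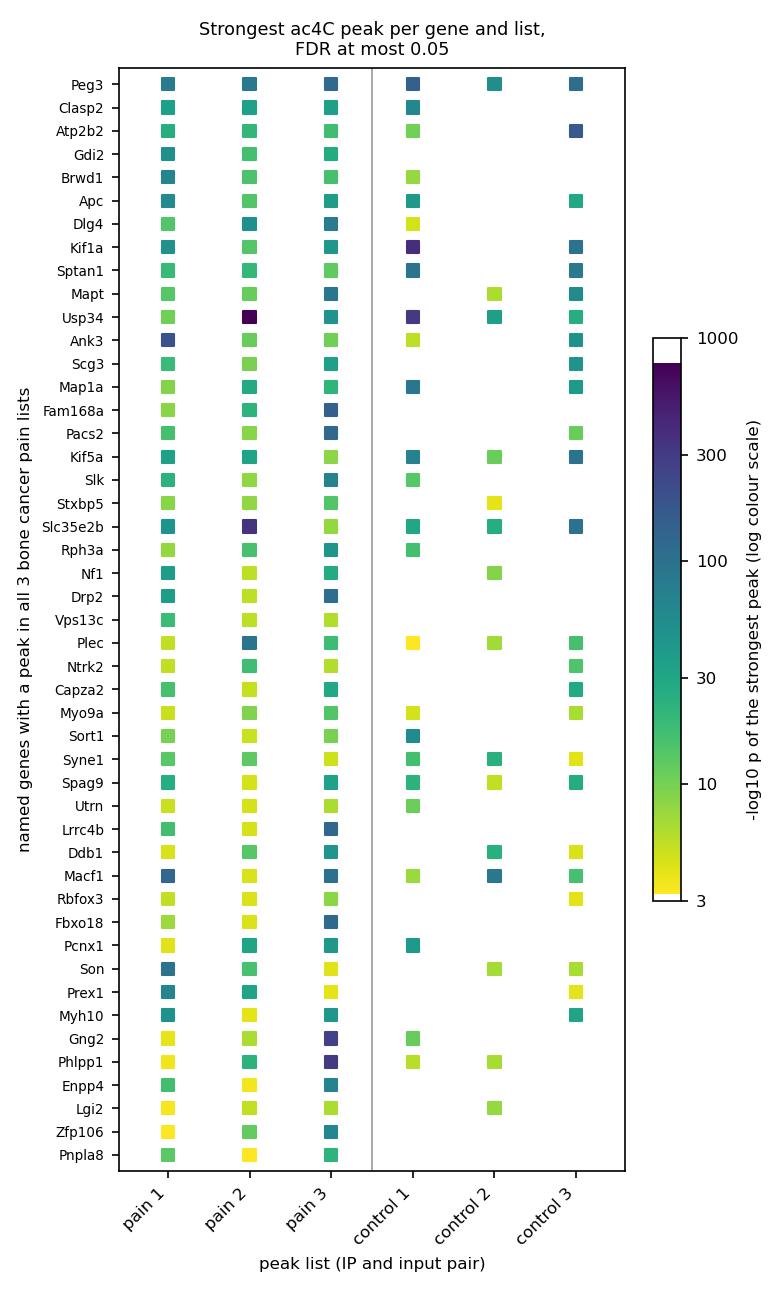
Strongest ac4C peak of 47 of the 49 named genes with a peak in all 3 bone cancer pain lists, coloured by −log10 p on a log colour scale; an empty place means no peak at an FDR of at most 0.05 in that list. Genes run from the highest to the lowest value of their weakest list, and 9 of them have no peak in any control list.

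Slc35e2b, a member of a family of solute carriers, was the only named gene whose strongest peaks all covered a common stretch longer than 1 bp. The stretch, on chromosome 5, covered positions 173046075 to 173046194 (plus strand). Its fold was 286, 369 and 26.5 in lists 1, 2 and 3, and its −log10 p was 45.3, 346 and 7.85. The gene stood low in the RIP inputs, at 1.957, and all 3 control lists held a peak there as well. Ddb1, a DNA damage-binding subunit of a ubiquitin ligase, was the other named gene joined across the 3 lists. Its peaks lay between 226675779 and 226678011 on the plus strand of chromosome 1, but the list 1 peak ended at the base where the list 3 peak began, and list 2 overlapped both. Its fold was 2.35, 22.7 and 91.3 in lists 1, 2 and 3.

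Among the named genes, Peg3, an imprinted zinc finger gene, had the highest −log10 p in its weakest list. Its values were 80.9, 86.7 and 120 in lists 1, 2 and 3, at folds of 4.21, 3.63 and 3.24. Lists 2 and 3 placed the peak between 70231940 and 70232179 on the plus strand of chromosome 1, and list 1 placed its only Peg3 peak about 3 kb away (2.976 kb between centres). The gene was among the more abundant, at 56.49, and was in all 3 control lists. Clasp2, which stabilises the plus ends of microtubules, followed with −log10 p of 34.7, 34.7 and 35.7. Its list 2 and list 3 peaks were neighbours that did not overlap, and its list 1 peak lay 23.59 kb from the farthest of them.

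Atp2b2, a plasma membrane calcium pump, had folds of 3.2, 3.33 and 11.8 in lists 1, 2 and 3. Its strongest peaks lay at 3 separate places, and 2 of the 3 control lists held a peak of it.

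Cytoskeletal linkers were the gene group with the most members in recurrent lists. Of 28 giant linkers and spectrins in the RIP table, 12 recurred, which here means a peak in 2 or 3 of the bone cancer pain lists, and 8 of these were in all 3. Counting lists 2 and 3 alone left 10 of 28. In the controls 14 of 28 were in at least 2 lists. Over all named genes, 4.04% were in 2 or 3 lists and 1.82% in lists 2 and 3. At least 2 control lists held 3.91% of them. These shares are the reference for every gene group below, but they are not matched for input signal. Recurrence rose with that signal, from 1.061% in the lowest of the 4 parts of the table to 8.994% in the highest. Median input was 2.328 for cytokines, 2.778 for glutamate receptors, 8.051 for inhibitory genes, 14.93 for presynaptic genes and 65.34 for astrocyte genes. Whether a group's share differs from that of genes with a like input signal was not tested. The median input signal of the linker group was 5.819, against 3.337 over all named genes. Its members are known for very long transcripts, and transcript length was not analysed here.

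Within that group the peaks rarely fell at one place. Ank3, ankyrin-G, which anchors channels at the axon initial segment, had folds of 212, 52.3 and 13.3 and held 3 peaks in list 1. One of those 3 overlapped the list 3 peak, but the strongest did not. Plec, plectin, had folds of 5.88, 204 and 3.93 and held 5 peaks in list 2, the most of any gene in the bone cancer pain lists. Macf1, which crosslinks microtubules and actin, had −log10 p of 128, 4.4 and 104. Utrn, utrophin, passed more narrowly at 5.1, 4.6 and 6.43, and its peaks were the farthest apart of all. Map1a and Mapt, microtubule-associated proteins of dendrites and axons, were in all 3 lists, with folds of 12.3, 4.06 and 3.1 for Map1a and 3.68, 52.3 and 36.4 for Mapt. Sptan1, a spectrin, had the most even folds among the 8 members in all 3 lists, at 4.63, 7.26 and 4.57. Syne1, of the nuclear envelope, had folds of 17.6, 15.7 and 2.81. Ahnak, Ank2, Dst and Map4 were in 2 of the 3 lists.

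Motor proteins came next, with 9 of 33 members in at least 2 lists and 6 of 33 in lists 2 and 3. The controls had 11 of 33. Kif1a, a kinesin that carries synaptic vesicle precursors, had folds of 3.27, 2.13 and 3.72 at separate places. Kif5a, a kinesin of axonal transport, had 5.08, 7.21 and 1.94, and the peaks of lists 1 and 3 overlapped. Myh10, a non-muscle myosin, and Myo9a were also in all 3 lists. The adaptors Trak1 and Trak2, which link mitochondria to motors, were in lists 2 and 3, and Kif1c, Kif13b and Myo18a in other pairs of lists.

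**Figure D4:**
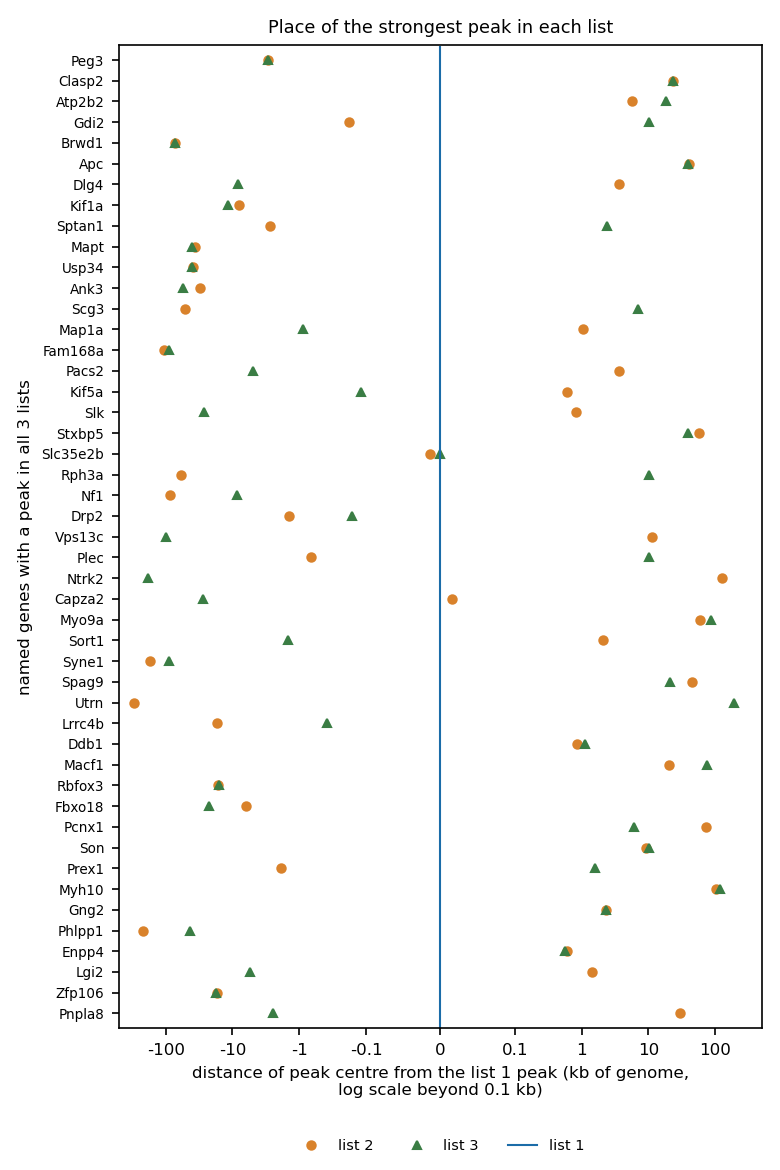
Place of the strongest peak in lists 2 (circles) and 3 (triangles) relative to that of list 1 (line at 0) for 47 of the 49 named genes in all 3 bone cancer pain lists. The horizontal axis gives the distance between peak centres in kb of genome, linear within 0.1 kb of 0 and logarithmic beyond; only Slc35e2b has both points inside that range, and Utrn spans 494.3 kb.

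Genes of inhibitory transmission, which holds pain signals in check in the dorsal horn, had recurrent peaks in 5 of 22 members, though in 2 of 22 by lists 2 and 3 alone. The controls had 3 of 22, and none of the 5 was in all 3 bone cancer pain lists. Glrb, the subunit that anchors glycine receptors at synapses, had 3.96 and 244 in lists 2 and 3, with −log10 p of 29.4 and 123. Slc6a11, a GABA transporter, had 3.36 and 15.6 in the same pair of lists, and the chloride importer Slc12a2 had 84.6 and 9.71 in lists 1 and 2. None of the 5 had overlapping peaks in its lists.

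Of 20 glutamate receptor genes 2 recurred, both in lists 2 and 3. Gria4, an AMPA receptor subunit, had folds of 31.4 and 3.4, and Grin1, the obligatory NMDA receptor subunit, had 13.1 and 1.68. Neither had a peak in a control list, as held for 160 of all 318 genes in 2 bone cancer pain lists, and 0 of 20 were in at least 2 control lists. The −log10 p of these 4 peaks lay between 3.93 and 7.29. The vesicular glutamate transporter Slc17a6, counted among 28 presynaptic genes, was in lists 1 and 2. Of those 28 genes 4 recurred, the others being the active zone scaffolds Bsn and Pclo and the calcium sensor Syt2, all in lists 2 and 3. Syt2 reached a −log10 p of 470 in list 3 and 18.4 in list 2.

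Postsynaptic scaffolds had 5 of 26 members in at least 2 lists, 3 of 26 by lists 2 and 3 alone, and 3 of 26 in at least 2 control lists. Dlg4, the PSD-95 scaffold of excitatory synapses, was in all 3 lists with folds of 21.2, 112 and 34.2. The centres of its 3 peaks lay within 11.77 kb, the peaks did not overlap, and 1 control list held a peak of it. Dlg1, Shank1 and Iqsec1 were in 2 lists each. Of voltage-gated sodium, calcium and potassium channels, 1 of 10, 1 of 20 and 2 of 28 members recurred, and 1, 0 and 0 by lists 2 and 3 alone. In at least 2 control lists the counts were 3, 2 and 3. The channels that recurred in bone cancer pain included Cacna1d, an L-type calcium channel, and Kcna2, a potassium channel of axons.

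Neurotrophic signalling has long been studied in pain. The group of neurotrophins and neurotrophic receptors, which also counts Lrp1 and Flt1, had 4 of 17 members in at least 2 lists. It had 2 of 17 by lists 2 and 3 alone, and 1 of 17 in at least 2 control lists. The receptors Ntrk3, Gfra1, Gfra2 and Ret had no peak at the limit in any of the 3 lists. Ntrk2, the receptor for brain-derived neurotrophic factor, was in all 3 lists, with folds of 14.1, 27.9 and 7.57 and −log10 p of 5.39, 17.2 and 6.12. Its peak centres were spread over 309.7 kb. Sort1, sortilin, a sorting receptor for neurotrophins, had folds of 3.34, 6.97 and 5.4, with peak centres within 3.584 kb. The receptor Lrp1, in lists 1 and 2, had an overlapping peak in both. Flt1, which was counted among endothelial genes as well, was in the same 2 lists. One control list held Ntrk2, and 1 held Sort1.

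Immune and glial groups had 1 or 2 recurrent members each, against 4.04% of all named genes. Of 19 cytokines, chemokines and receptors, Il6st, the shared signal chain of the interleukin-6 family, was the 1 in at least 2 lists, with folds of 20.9 and 15.3 in lists 2 and 3 and −log10 p of 76.4 and 92.7. It was in 2 control lists too. Sirpa was the 1 of 13 microglial and complement genes. Of 22 astrocyte genes 2 recurred, among them Slc1a3, a glutamate transporter, with overlapping peaks in lists 2 and 3. Of 26 myelin genes, Tspan2 recurred, and Mbp was not among the recurrent genes despite its high input level. Drp2, a dystrophin relative of Schwann cells, was the 1 of 7 genes of sensory ganglia and Schwann cells to recur. The shares were 5.263% for cytokines, 7.692% for microglia, 9.091% for astrocytes, 3.846% for myelin and 14.29% for ganglia and Schwann cells. By lists 2 and 3 alone the counts were 1, 1, 2, 0 and 1, and in at least 2 control lists they were 1, 0, 2, 1 and 0.

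Neuronal identity genes had 4 of 20 members in at least 2 lists, and 2 of 20 by lists 2 and 3 alone. The controls had 2 of 20. Rbfox3, the neuronal splicing factor NeuN, was in all 3 lists with folds of 14.1, 20.9 and 15.5, and lists 2 and 3 overlapped. Nefl had −log10 p of 225 and 1260 in lists 2 and 3 at folds of 3.41 and 3.13, and these were 2 separate places in the gene. Elavl4 and Ina were the others.

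Genes of RNA and protein handling were read against the 4.04% of all named genes in at least 2 lists. In the order below, their shares were 12.77%, 13.64%, 12% and 16.28%. Splicing factors and helicases had 6 of 47 members in at least 2 lists (5 of 47 in controls), with Son, a nuclear speckle protein, in all 3 at folds of 19.6, 24.4 and 2.13. Ubiquitin ligases and proteases had 6 of 44 (10 of 44 in controls). Usp34, a deubiquitinase, led them with folds of 37, 533 and 42.4, and lists 2 and 3 placed its peak together while list 1 placed it 40.46 kb away. Chromatin factors had 6 of 50 (7 of 50 in controls) and none in all 3 lists, and Kdm6b, a histone demethylase, was the 1 of the 6 with overlapping peaks. Membrane traffic genes had 7 of 43 (3 of 43 in controls), with Gdi2 and Vps13c in all 3. By lists 2 and 3 alone the counts were 3 of 47, 3 of 44, 4 of 50 and 3 of 43, against 1.82% of all named genes.

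Housekeeping groups were read against the same 4.04% of all named genes. Nuclear genes of oxidative phosphorylation had 0 of 47 members in at least 2 lists, at a median input of 12.3, and 9 of 47 in 1 list. Cytoplasmic ribosomal proteins had 2 of 61 (3.279%), near the share of all named genes, at a median input of 11.85. In at least 2 control lists the counts were 1 of 47 and 0 of 61. The 2 ribosomal protein genes that recurred in bone cancer pain were Rpl15 and Rps23, both in lists 2 and 3. Rpl15 had folds of 8.02 and 53.9, and Rps23 had overlapping peaks at folds of 3.95 and 11.3. The genes that write, erase or read RNA marks had 1 of 26 (3.846%; 1 of 26 in controls), Adarb1, an RNA editing enzyme, and matrix genes of the meninges had 0 of 17. Of all 888 list members in the table, 104 had a peak in at least 2 lists.

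**Figure D5:**
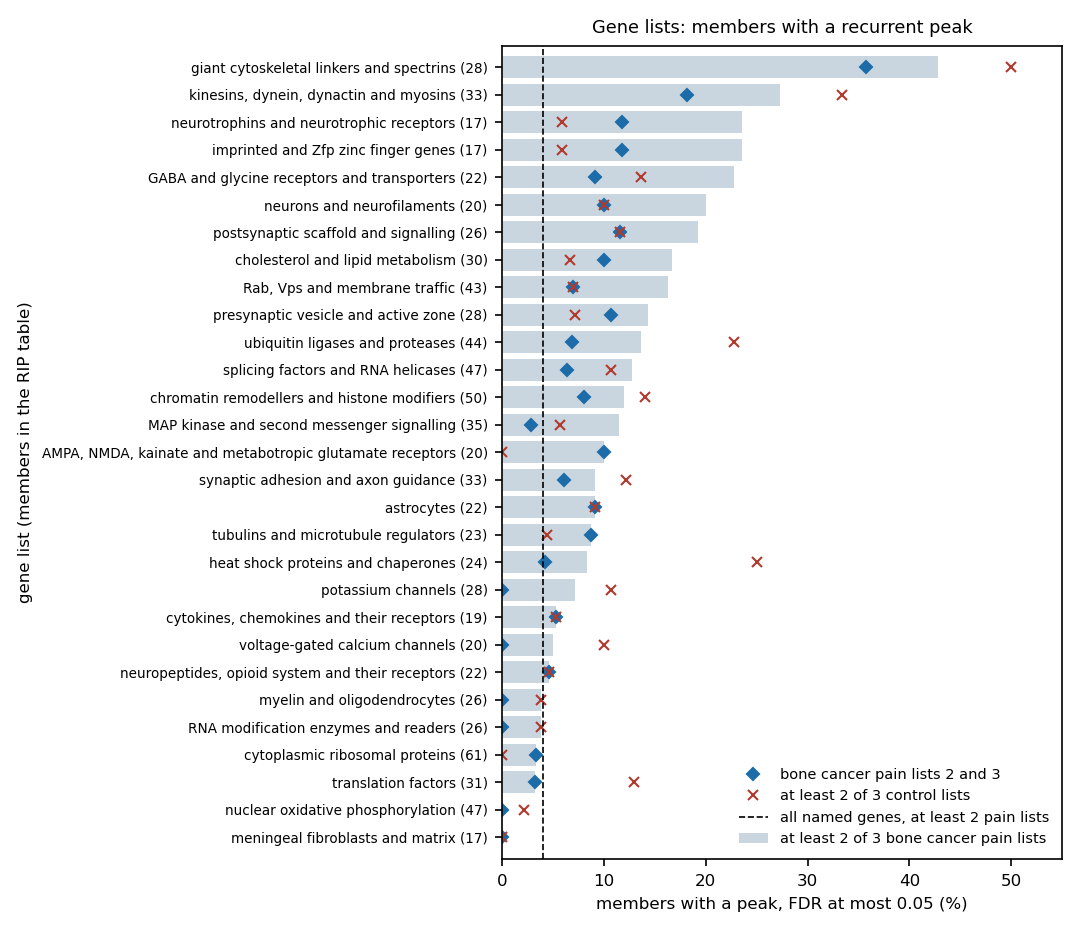
Percentage of each gene list's members in the RIP table with a peak at an FDR of at most 0.05 in 2 or 3 bone cancer pain lists (bars), in bone cancer pain lists 2 and 3 (diamonds) and in at least 2 of 3 control lists (crosses), for lists of 15 or more members. The dashed line is the 4.04% of all named genes, not matched for input signal. Giant linkers lie farthest above it at 12 of 28, with the control value higher still at 14 of 28.

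Other named genes in all 3 lists fell in no group above or were its only member in all 3 lists. Apc, a regulator of Wnt signalling and microtubules, had folds of 9.81, 18.3 and 15.3, and Nf1, neurofibromin, had 63.5, 26.1 and 12.3. Scg3, a granin of secretory granules, had 2.51, 5.23 and 2.59 at an input level of 38.11. Stxbp5 and Rph3a, which act in vesicle release, Pacs2, a sorting protein, and the kinase Slk were also among the 25 strongest, with Brwd1, which had a fold of 402 in list 1 against 68 and 23 in the others. The kinase scaffold Spag9 and 6 genes that the naming rule does not cover, listed after their values were seen (Capza2, Pcnx1, Prex1, Gng2, Phlpp1 and Lgi2), were also in all 3 lists.

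Many of the strongest peaks of lists 1 and 3 belonged to genes outside the 60. Among named genes, the strongest in list 1 were Tpm1 (a tropomyosin), Ank3, Enpp5 and Ivd (an enzyme of leucine breakdown), after the mitochondrial AY172581.24. In list 3 they included Nefl, Nipsnap1, Dynll2 (a dynein light chain) and Fem1c. In list 2 they included Usp34 and Slc35e2b, which are among the 60, and Hsp90ab1 and Nefl, which are not. Among genes of lists 2 and 3 that list 1 lacked under the limit, Hsp90ab1, a constitutive HSP90, was first, with overlapping peaks, folds of 1.69 and 1.97 and −log10 p of 337 and 526. Gprc5b, an orphan receptor, and Padi2, which converts arginine to citrulline in proteins, also had overlapping peaks. Pafah1b1 (LIS1, a dynein regulator), Srrm2, Serbp1 and Cspg5 were in both lists at separate places. All 3 control lists held Hsp90ab1 and Srrm2, 2 held Serbp1, and 1 each held Pafah1b1 and Padi2. No control list held Gprc5b or Cspg5.

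Whether a recurrent gene is particular to bone cancer pain was then asked against the 3 control lists. Among 3805 genes with a peak in any of the 6 lists, 169 recurred in bone cancer pain while absent from every control list (4.44%), and 158 did the reverse (4.15%). All 3 against none was met by 9 genes (0.237%) in the first direction and 11 genes (0.289%) in the other. No gene can pass a test in this design: Fisher's exact test for 3 lists against 0 gives p = 0.1, and for 2 against 0 gives p = 0.4. With all peaks as deposited the counts were 1322 and 66, with list 1 then holding 29130 genes. Genes in more lists were more often in the other group too. Of the 60 genes, 85% had a peak in at least 1 control list, as did 49.69% of genes in 2 lists and 32.05% of genes in 1 list. For controls in reverse the values were 78%, 52.73% and 32.97%.

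The 9 genes in all bone cancer pain lists and no control list were Drp2, Gdi2, Fam168a, Enpp4, Lrrc4b, Pnpla8, Zfp106, Fbxo18 and Vps13c. Drp2 had folds of 63.5, 26.1 and 98.4 and −log10 p of 37.2, 5.53 and 111. The centres of its strongest peaks lay within 1.404 kb on the X chromosome, and list 3 held peaks overlapping those of lists 1 and 2. Gdi2, which recycles Rab proteins, had folds of 6, 14.8 and 24.3, and lists 1 and 2 overlapped. Fam168a had folds of 3.53, 27.4 and 59.1, with overlaps at 2 different places. Lrrc4b, a postsynaptic adhesion protein, had −log10 p of 16.9, 4.6 and 129, and Enpp4 had 17, 3.53 and 68.7. Pnpla8, a phospholipase, Zfp106 and Fbxo18, a helicase, each came near the limit in 1 list, with a lowest −log10 p of 3.27, 3.34 and 4.35. Vps13c, a lipid transfer protein, had 18.6, 5.53 and 6.07. Lrrc4b, Pnpla8 and Vps13c had a peak above the FDR limit in 1 control list, and the other 6 had none.

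Of genes in 2 bone cancer pain lists and no control list, the strongest by their second best p-value were Dlc1, Nckipsd, Tdrkh, Ccdc88a, Ubb, Npat, Trim37, Gprc5b, Cspg5 and Cpt1a. Dlc1, a GTPase-activating protein, had folds of 561 and 166 in lists 1 and 3. Nckipsd, an actin regulator, had 58.2 and 91.5 in lists 1 and 2. Cpt1a, which imports fatty acids into mitochondria, had 286 and 131 in the same pair. List 1 was 1 of the 2 lists for all of these genes but Gprc5b and Cspg5, and the count of 169 was 58 when lists 2 and 3 alone stood for bone cancer pain.

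The reverse set held Bag6, Tanc2, Pak1, Snrnp200, Ak5, Ankib1, Lpar1, Usp33, Chrna7, Kif21a and Dmxl1, present in all 3 control lists and in no bone cancer pain list at the limit. Bag6, a chaperone of membrane proteins, had control folds of 17.6, 6.52 and 128, and Tanc2, a postsynaptic scaffold, had 168, 13 and 39.1. Chrna7, a nicotinic receptor subunit, had 16, 16.3 and 100. With all peaks as deposited, only Ak5, Lpar1 and Kif21a of the 11 remained without a bone cancer pain peak.

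None of 7 measures of the lists as wholes passed a test between the groups. The number of peaks per list was 9.977 ± 0.2592 in bone cancer pain and 9.959 ± 0.1152 in controls on a log2 scale (SD, n = 3), with p = 0.9 in the exact permutation test. The share of peaks over more than 1 exon was 54.07% ± 1.281 against 54.56% ± 0.8909 (exact permutation p = 0.7). Genes with more than 1 peak made up 8.2% ± 2.675 against 9.009% ± 1.138 (exact permutation p = 0.6). The log2 of the median fold was 4.436 ± 0.3845 against 4.156 ± 0.2811, a difference of 0.2794 (exact permutation p = 0.4). Every adjusted p of these exact tests was 0.9, and with 3 lists against 3 none could have gone below 0.1, so these tests do not show that the groups are alike.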

How the data were processed

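The peak lists were deposited by the authors, 1 per IP and input pair per the file headers, on the rn6 build of the rat genome; positions are 1-based here. Total RNA was precipitated with an ac4C immunoprecipitation kit, per the labels' protocols. The submitters' processing notes name HOMER 4.10.4, HISAT2 2.1.0, featureCounts 1.6.3, cutadapt 2.5 and DESeq2 without a role. Which program called the peaks is not given in the sources. Each deposited peak has a fold (a ratio of IP to input), a p-value, log10 of the p-value and of the FDR, and the number and positions of its exon blocks. Folds describe peaks within a list; setting them side by side shows no change between lists. The deposited RIP table gave symbols, biotypes, a log2 fold, and a signal for each input library.

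A gene counted in a list with at least 1 peak of FDR at most 0.05. Peaks overlapped when exon blocks shared at least 1 bp on a strand, also through a peak of another list. The 7 list measures were compared by two-sided exact permutation tests with Benjamini-Hochberg adjustment. These p-values measure the spread between lists, except for the share of genes in another list of the group, whose values are not independent. The overlap step was tested on simulated data. Alternatives were all peaks, an FDR of at most 0.01, the 899 strongest peaks of each list, an overlap of 50% of the shorter peak, leaving out each list, and a replicate block. Python 3.11.15, pandas 2.3.3, numpy 2.4.6 and scipy 1.17.1 were used.

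The members, the FDR limit and the 34 gene lists were chosen with earlier results of these data known, and nothing is supported by their choice. Named genes were the first 25 named genes in all 3 lists by the −log10 p of their weakest list, the first 10 in lists 2 and 3 that are not among these, the 5 strongest per list, genes of 3 lists against 0 and the first 10 of 2 against 0, members of the gene lists in at least 2 lists, and stretches in all 3 lists. Peak sequences and transcript regions were not analysed here. Some genes that the rule names are not reported here.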

Additional observations from a re-analysis of the deposited data

How the results depend on the processing

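The 60 genes in all 3 bone cancer pain lists, the 378 genes in at least 2, the 13 stretches in all 3, and the 169 and 158 genes in at least 2 lists of one group and none of the other were recounted under each alternative. With all peaks as deposited they became 267, 2314, 35, 1322 and 66. At an FDR of at most 0.01, 53 of the 60 genes were still in all 3 lists, and with the 899 strongest peaks of each list 48 were. Of the 169 genes, 130 kept their pattern with all peaks, 136 at the stricter FDR and 127 at equal lengths; of the 158, 38, 126 and 127 did. Leaving out 1 list turns "all 3" into "both", so the 60 and the 378 both ran from 134 to 193 genes, and the 13 from 31 to 50 stretches. The 169 ran from 49 to 219 and the 158 from 53 to 200, the lowest with a list of the same group left out and the highest with a list of the other group left out. Leaving out the wide peaks of list 1, an alternative chosen after seeing the data, gave 60, 366 and 159 genes.

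Among the differences of list measures (bone cancer pain minus control), 3 reversed with the setting: the share of peaks over more than 1 exon at the stricter FDR (0.1748 percentage points), the share of genes with more than 1 peak with all peaks (7.883) and the log2 of the median fold with all peaks (−0.1344). The cause was not tested, and no difference passed its test.
With each list left out in turn, the difference ran from −0.1313 to 0.1007 for the log2 of peaks per list, from −0.08842 to 0.1067 for the log2 of genes per list, from −1.105 to 0.1706 for the share of peaks over more than 1 exon, from −2.336 to 0.1545 for the share of genes with more than 1 peak. It ran from 0.07578 to 0.4578 for the log2 of the median fold, from −2.755 to 1.203 for the share of genes with a row in the RIP table and from −12.77 to 12.48 for the share of genes shared with another list of the same group. In the last of these a group of 2 has 1 other list to share genes with instead of 2, which moves the value and gives p = 0.1 in the exact permutation test, the smallest possible.
In the replicate block, which pairs lists by number, the differences were unchanged by construction (0.814 percentage points for the share of genes in another list of the group, 0.01804 for log2 peaks) and the sign-flip p ran from 0.25, the smallest it can give, to 1. The numbers did not pair the lists: same-numbered lists of the groups shared 9.19% to 10.74% of their joint genes and other pairs 8.273% to 11.71%, and 0 of 3 bone cancer pain lists were closest to the control of their number. Read depth is unknown and limits every absent peak.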

Other observations

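Genes of cholesterol and lipid metabolism had a recurrent peak in 5 of 30 members, 3 of 30 by lists 2 and 3 alone and 2 of 30 in at least 2 control lists. Fasn, the fatty acid synthase, had folds of 6.35 and 7.07 in lists 1 and 3. Npc1, the lysosomal cholesterol exporter, was in lists 2 and 3, with folds of 20.9 and 5.89. Signalling kinases had 4 of 35 members (1 of 35 by lists 2 and 3 alone), among them Mapk3 (ERK1), Mapk9 (JNK2) and Mtor in lists 1 and 2. These 3 had no control peak at the limit, as held for 160 of all 318 genes in 2 bone cancer pain lists. The fourth, the scaffold Spag9, was in all 3 control lists, and 2 of 35 members were in at least 2 control lists.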
